A study of Mus musculus with 8 samples.

Results

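Transcripts of 10 transcription factors that hold B cell identity or carry B cells into the germinal center, namely Bcl6, Bach2, Pax5, Irf4, Irf8, Spib, Ebf1, Mef2b, Mef2c and Pou2af1, were measured in B cells that had received help from T cells with either 1 or 2 intact Bcl6 alleles. The 10 genes were picked by name from the gene symbols of the count table, and all 10 were among the 12744 of 24259 symbols with enough reads to be tested. The libraries came from antigen-binding B cells sorted as NP+IgDlowB220+ from lymph nodes on day 3 after immunization with NP-OVA, a hapten coupled to ovalbumin, given with LPS in alum. For the 4 HET libraries help came from CD4-CrexBcl6fl/+ OT-II T cells, which recognise an ovalbumin peptide and lose 1 Bcl6 allele, and for the 4 WT libraries it came from CD4-Cre OT-II T cells with both alleles. All libraries carry the C57BL/6 strain label, and in both groups the transferred T cells went into recipients lacking SAP, an adaptor that T cells need for stable contact with B cells. The age of the mice is not in the labels. Cre was driven by the Cd4 promoter, so the deletion lies in the helper T cells and the Bcl6 gene of the sequenced B cells was intact in both groups. B cells of the recipients of 1 group were pooled and about 200 cells were then sorted for each library. The 4 libraries of a group are therefore repeats of sorting and amplification from 1 pool, p-values measure the spread between such repeats only, and the T cell genotype and the pool of mice cannot be told apart.

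PAX5 and EBF1 switch on the genes of the B cell receptor complex and hold the B cell program, while BACH2 and IRF8 keep activated B cells from turning into plasma cells early. BCL6 is the repressor without which germinal centers do not form, MEF2B and MEF2C are MADS-box factors that act on its locus or in the B cell response, and OCA-B (the product of Pou2af1) is the partner of octamer-binding factors that germinal centers need. IRF4 acts by dose, with transient expression serving entry into the germinal center and sustained high expression driving plasma cell formation, and SPI-B and PU.1 recruit IRF4 and IRF8 to shared ETS-IRF composite elements.

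The main measurement is that none of the 10 factors passed the adjusted threshold of 0.05 between HET and WT in edgeR's quasi-likelihood test with Benjamini-Hochberg adjustment over all 12744 genes, where 0.0235% of genes (3 genes) passed. None passed by DESeq2 or limma-voom either, where the lowest adjusted p among the 10 was that of Ebf1, 0.303 and 0.492. Transcripts of Bcl6, Bach2 and Ebf1 had lower means in HET than in WT, by log2 fold changes of -0.50, -0.37 and -0.31, with unadjusted p under 0.05. Those of Pax5, Mef2c and Irf8 differed by -0.21, -0.17 and -0.05, and those of Spib, Irf4, Pou2af1 and Mef2b by 0.06, 0.16, 0.25 and 0.32. Unadjusted p was thus under 0.05 for 3 of 10 factors, all 3 lower in HET, beside 7.22% of all genes in either direction and 3.88% in that direction. No factor had an unadjusted p under 0.05 with a higher value in HET, beside 3.34% of all genes. These direction counts turned with the scaling: with libraries scaled to 6 B cell markers, an alternative added after the data were seen that moved the median of all genes to 0.25, the 3 factors with unadjusted p under 0.05 by edgeR were Pou2af1 (0.52, p 0.00475), Spib (0.31, p 0.0105) and Irf8 (0.21, p 0.0233), all higher in HET, beside 17.2% of all genes, and 0 were lower, beside 0.659%. Relative to the shifted median of all genes, Pou2af1 and Spib lay above and Irf8 below. The fitted change was below 0 for 6 of the 10 factors, against 50.1% of all genes. The median of the 10 changes was -0.11 on the log2 scale, and the median over all genes tested was -0.001.

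The promoter stretches around the only motif matches among the 10 factors are printed here, since 3 of the factors carry in their promoter the letters that other members of the same group are known to read. The letters of 7 motif forms were looked for on both strands in the 250 bases before each RefSeq start site on GRCm38.p6, in 15 windows for the 10 genes and 32851 windows in all. The octamer ATGCAAAT, read by OCT1 and OCT2 with OCA-B, occurred in the promoter of Mef2b and in 1.6% of all windows. The ETS-IRF composite form, GGAA and GAAA with any 2 bases between them, is read by IRF4 or IRF8 with SPI-B or PU.1, and occurred in a promoter of Bach2 and in 1 of the 2 promoters of Bcl6, and in 2.3% of all windows. Capitals mark the matched letters, and each stretch reads 5′ to 3′ on the strand of its gene.
Mef2b, octamer, plus strand, chr8:70152636-70152723: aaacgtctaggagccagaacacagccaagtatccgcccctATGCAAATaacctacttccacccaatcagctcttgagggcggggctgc
Bach2, ETS-IRF composite read on the minus strand, plus strand shown, chr4:32417378-32417434: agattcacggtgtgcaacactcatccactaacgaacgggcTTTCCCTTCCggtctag
Bcl6, ETS-IRF composite, minus strand, chr16:23981284-23981351: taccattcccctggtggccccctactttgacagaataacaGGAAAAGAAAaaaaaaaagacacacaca

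The octamer of Mef2b lies 85 bases before its start site, and the composite matches of Bach2 and Bcl6 lie 17 and 28 bases before theirs. In the GENCODE M21 annotation none of the 3 matches overlaps an exon. That of Bach2 falls in an intron of 3 longer Bach2 transcripts, that of Mef2b in an intron of the read-through transcript Mef2b-205, and that of Bcl6 in an intron of Bcl6-201. No window of the 10 genes held the EBF form (TCCC and GGGA with any 2 bases between them), the BCL6 core TTCCTAGAA, the BACH2 form TGANTCAGC, or the MEF2 forms with TTTA or AAAA between CTA and TAG, which occurred in 0.779%, 0.347%, 1.02%, 0.14% and 0.103% of all windows. A match is a description of letters and not a bound site, and a form with no match says only that these letters are not in these windows.

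The libraries held between 6652386 and 12559189 counts on genes. The common biological coefficient of variation between libraries of a group was 0.391. All 6 B cell markers examined (Cd79a, Cd79b, Ms4a1, Ptprc, Cd22, Cd74) were present in every library. The summed level of these 6 markers was 19997 to 20922 CPM (counts on a gene per 1000000 counts of the library, after scaling) in HET. In WT it was 22899.5 to 25478 CPM, with no overlap. All 6 were lower in HET, by a median of -0.26, with unadjusted p under 0.05 by edgeR, beside 3.88% of all genes. Of the 6, 5 had no overlap between groups, beside 4.61% of all genes in either direction. In bulk libraries, fewer cells of a type and less RNA per cell cannot be told apart. The 11 T cell markers summed to 269 to 508 CPM in HET and 161 to 403 in WT, with Cd4 at 0.758 CPM or less in each library. Other T cell markers were present in all libraries, with Cd8a at 7.19 to 57.1 CPM, Trbc2 at 10.8 to 75.9 CPM and Lck at 92.4 to 172 CPM. The 8 dendritic cell markers summed to 116 to 299 CPM in HET and 67.5 to 187 in WT, and the 9 myeloid markers to 20.4 to 59.6 and 29.9 to 434. The highest myeloid sum, in WT replicate 2, was mostly Lyz2, at 399 CPM. Fcgr1 was at 0 in every library but WT replicate 2, where it was at 1.22 CPM. The part of any of these differences in the values of the 10 factors, or of the companion genes given below, was not tested.

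Bcl6 (chr16:23965052-23988852, minus strand, GRCm38) encodes the zinc finger repressor of the germinal center program. It stood at 35.6, 40.03, 58.9 and 47.8 CPM in HET replicates 1 to 4 and at 71.2, 45.3, 59.4 and 81.0 CPM in WT replicates 1 to 4. The ranges overlapped: 2 HET libraries lay above the lowest WT library, and the 2 highest libraries, replicates 4 and 1, were WT. The means were 45.6 ± 10.2 and 64.2 ± 15.4 CPM (SD, n = 4 each), a log2 fold change of -0.50 with a standard error of 0.21 and a 95% interval of -0.95 to -0.04. Its unadjusted p was 0.0344 and its adjusted p 0.629 by edgeR. Leaving out each library in turn gave log2 fold changes from -0.64 to -0.37, with unadjusted p under 0.05 in 3 of the 8 cases by edgeR. Without HET replicate 1, which had the least Bcl6, the value was -0.39 (unadjusted p 0.104 by edgeR), and without WT replicate 4, which had the most, it was -0.37 (unadjusted p 0.125 by edgeR).

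Bach2 (chr4:32238804-32586108, plus strand) encodes the basic leucine zipper repressor that restrains Prdm1. Its HET libraries stood at 120.3, 113, 89.7 and 97.8 CPM and its WT libraries at 128, 160.02, 115 and 139.6 CPM in the order of their replicates. Only HET replicate 1 exceeded the lowest WT library, replicate 3. In deposited TPM, which divides by length and rescales each library, the groups of Bach2 did not overlap, at 1.6 to 2.01 in HET and 2.14 to 2.85 in WT, so the overlap depends on the scaling of the libraries. The log2 fold change was -0.37 ± 0.14 (SE), with a 95% interval of -0.66 to -0.07, an unadjusted p of 0.0184 and an adjusted p of 0.600 by edgeR. It remained between -0.43 and -0.28 when single libraries were left out, and unadjusted p passed 0.05 without HET replicate 3 (0.0581, edgeR) and without WT replicate 2 (0.0687, edgeR). A transcript antisense to the gene, Bach2os, covers 5.40% of the exonic bases of Bach2, and with the strand setting of the counting not stated, reads there cannot be told apart.

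Ebf1 (chr11:44617317-45008091, plus strand) encodes the early B cell factor that acts with PAX5. It was at 220.1, 222, 221 and 232 CPM in HET and at 266, 233, 333 and 279 CPM in WT. Every HET library lay below every WT library, by a margin of 232.17 against 232.66 CPM, and Ebf1 was the only factor of the 10 without overlap in CPM, beside 4.61% of all genes in either direction. Counting error alone was 2.56% for HET replicate 4 and 2.09% for WT replicate 2, the libraries at this margin, which is more than the gap between them. The HET libraries were tight, with a coefficient of variation of 2.51% against 15.1% in WT, where replicate 3 was highest. The log2 fold change was -0.31 ± 0.11 (SE), with a 95% interval of -0.55 to -0.07, an unadjusted p of 0.0141 and an adjusted p of 0.576 by edgeR. Without WT replicate 3 it was -0.20 with an unadjusted p of 0.0661 by edgeR, and it had an unadjusted p under 0.05 when any other single library was left out.

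Pax5 (chr4:44524757-44710487, minus strand), which encodes the paired-domain factor that commits cells to the B lineage, ran from 192 to 250.3 CPM in HET and from 212 to 315 CPM in WT. The groups overlapped widely, the highest library being WT replicate 3 and the lowest HET replicate 2. It differed by -0.21 ± 0.14 (SE) on the log2 scale, with an adjusted p of 0.795 by edgeR, and by -0.08 without WT replicate 3. The overlapping genes 5730488B01Rik and Gm12462, on the other strand, share 7.18% and 1.41% of its exonic bases. The log2 values of Bcl6, Bach2, Ebf1 and Pax5 were of the same order as that of the B cell markers, and the scaling to these 6 markers moved the median of all genes as given above. On that scale, Bcl6 stood at -0.24, Bach2 at -0.12, Ebf1 at -0.05 and Pax5 at 0.06, with no unadjusted p under 0.05 for any of these 4 by edgeR. All 4 lay below the shifted median of all genes, 0.25, as they lay below the median with TMM scaling. Cd79a, Cd79b and Cd22 among these markers are also genes that PAX5 or EBF1 activate, so this scale is not separate from Pax5 and Ebf1.

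**Figure D1:**
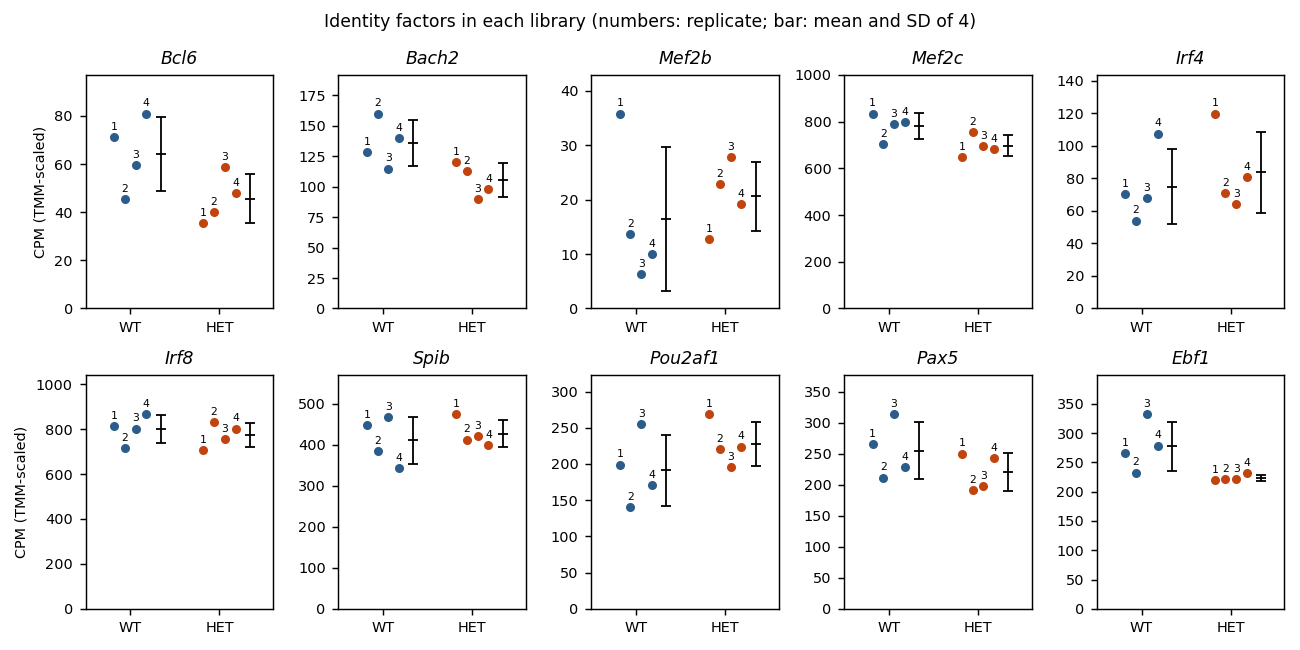
Levels of the 10 factors in each library, in CPM on the y axis from 0, with the WT libraries in blue and the HET libraries in orange, numbered by replicate, and a bar for the mean and SD of 4. Ebf1 is the only panel in which no HET library reaches a WT library, by a gap smaller than counting error. In the panels of Irf4 and Mef2b single libraries (HET replicate 1, WT replicate 4 and WT replicate 1) sit apart from the rest of their group.

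Mef2c and Mef2b encode paralogous MADS-box factors, and their levels behaved unlike each other across libraries. Mef2c (chr13:83504034-83667080, plus strand) was among the steadiest of the factors, at 649, 756, 697 and 684 CPM in HET and 835, 702, 790 and 798 CPM in WT. HET replicate 2 was the only HET library inside the WT range. Its log2 fold change was -0.17 ± 0.08 (SE), with a 95% interval of -0.34 to 0.005, an unadjusted p of 0.0556 and an adjusted p of 0.706 by edgeR. Mef2b (chr8:70139711-70167488, plus strand) had 12.7, 22.8, 27.9 and 19.1 CPM in HET and 35.8, 13.7, 6.31 and 10.02 CPM in WT, from raw counts of 50 to 377 per library. Its highest and lowest library were both WT, replicates 1 and 3, and the coefficient of variation was 80.5% in WT and 31.0% in HET. The log2 fold change of 0.32 ± 0.45 (SE) had a 95% interval of -0.66 to 1.29 and an adjusted p of 0.924 by edgeR. Without WT replicate 1 it was 1.03, with an unadjusted p of 0.0170 and an adjusted p of 0.558 by edgeR (0.548 to 0.994 over all alternatives), and it lay between 0.06 and 0.50 when any other library was dropped. The gene shares 62 exonic bases, 4.42% of its exonic length, with its neighbour Borcs8 on the same strand. Within a library, the log2 ratio of Mef2b to Mef2c was -5.13 ± 0.42 in HET against -5.87 ± 1.03 in WT (SD over 4 libraries each), a difference of 0.74 with p = 0.229 in an exact two-sided permutation test (70 arrangements of the libraries) and 0.343 after adjustment over 3 ratios. It ran from 0.38 without WT replicate 3 to 1.18 without WT replicate 1 (exact permutation p 0.400 and 0.0571). The smallest p this design allows is 0.0286.

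Pou2af1 (chr9:51213708-51240080, plus strand), which encodes the octamer coactivator OCA-B, was at 269, 221, 196 and 224 CPM in HET and 199, 140.1, 255 and 170.5 CPM in WT. Its log2 difference was 0.25 ± 0.16 (SE), with a 95% interval of -0.10 to 0.60 and an adjusted p of 0.793 by edgeR, and it ran from 0.13 without WT replicate 2 (unadjusted p 0.407 by edgeR) to 0.43 without WT replicate 3 (unadjusted p 0.0120 by edgeR), with 0.16 when HET replicate 1 was dropped. Its DNA-binding partners Pou2f1 and Pou2f2 stood at -0.22 and -0.03 on the log2 scale, with adjusted p of 0.841 and 0.978 by edgeR. The octamer printed above, in the promoter of Mef2b, is a form that this complex reads. Whether OCA-B acts on Mef2b in these cells was not tested.

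Irf8 and Spib had the fitted changes closest to 0 among the 10 factors. Irf8 (chr8:120736358-120756694, plus strand) ran from 707 to 832 CPM in HET and from 715 to 868 CPM in WT, and its log2 fold change was -0.05 ± 0.08 (SE), with an interval of -0.22 to 0.13. Spib (chr7:44525993-44532071, minus strand), encoding the ETS factor SPI-B, ran from 399 to 475 CPM and from 343 to 468 CPM, with a log2 fold change of 0.06 ± 0.11 (SE) and an interval of -0.17 to 0.28. Libraries of both groups were interleaved for either gene. The adjusted p was 0.945 for Irf8 and 0.948 for Spib by edgeR. The sign of such small values moved with single libraries: Spib was at -0.02 without WT replicate 4, and Irf8 at 5.77e-05 without HET replicate 1.

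Irf4 (chr13:30749226-30766976, plus strand) varied more between libraries of 1 group than between the groups. It was at 119.9, 70.7, 64.1 and 80.5 CPM in HET and 70.5, 54.05, 67.6 and 107.5 CPM in WT. HET replicate 1 and WT replicate 4 were highest, and the other 6 libraries lay between 54.05 and 80.5 CPM. Its log2 difference was 0.16 ± 0.23 (SE), with a 95% interval of -0.32 to 0.65 and an adjusted p of 0.918 by edgeR. Dropping HET replicate 1 gave -0.06, and dropping WT replicate 4 gave 0.39. The same 2 libraries had the most Prdm1, which encodes the plasma cell regulator BLIMP1, at 10.2 and 10.9 CPM against 0.150 to 3.15 CPM in the others. Jchain, the joining chain of secreted IgM and IgA, was at 1576 CPM in HET replicate 1 and 94.8 CPM in WT replicate 4, with 0.505 to 97.1 CPM elsewhere. The summed plasmablast markers were 223 to 1980 CPM in HET and 187 to 419 CPM in WT, with the highest of each group in those 2 libraries. In HET replicate 1, Sdc1, Mzb1 and Tnfrsf17 were also the highest of the HET libraries. In WT replicate 4 they were not the highest of the WT libraries, at 23.8, 26.0 and 0 CPM against 31.1, 28.3 and 5.23 CPM in WT replicate 1. The sum of WT replicate 4 rests mostly on Xbp1, at 263 CPM, and Jchain. The part of plasmablasts in the Irf4 values was not tested beyond leaving out both libraries together, an alternative added after the data were seen, which gave 0.16 for Irf4 and -0.26 for Bcl6 (unadjusted p 0.388 and 0.276 by edgeR).

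**Figure D2:**
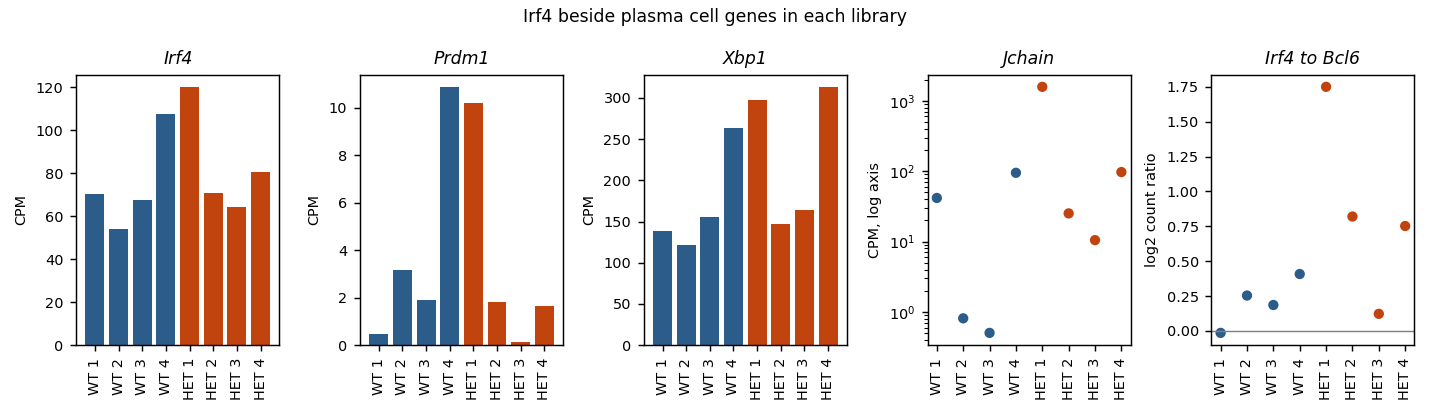
Irf4, Prdm1 and Xbp1 as bars in CPM, Jchain as points in CPM on a log axis, and the log2 ratio of Irf4 to Bcl6 counts as points, each for the WT libraries (blue) and the HET libraries (orange) along the x axis. Irf4 and Prdm1 are both highest in HET replicate 1 and WT replicate 4, with Irf4 at 119.9 and 107.5 CPM and Prdm1 at 10.2 and 10.9 CPM, while Xbp1 is also high in HET replicate 4, at 313 CPM.

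The balance between Irf4 and its counterparts was also taken within each library, where scaling has no part. The log2 ratio of Irf4 to Bcl6, factors that oppose each other in the choice between plasma cell and germinal center fates, was 1.75, 0.82, 0.12 and 0.75 in HET and -0.01, 0.25, 0.19 and 0.41 in WT. HET replicates 1, 2 and 4 lay above all WT libraries and HET replicate 3 below 3 of them. The difference of means was 0.65 (0.86 ± 0.67 against 0.21 ± 0.17, SD, n = 4 each), with p = 0.114 in the exact permutation test and 0.343 after adjustment over the 3 ratios. It was 0.90 without HET replicate 3, with p = 0.0286 in the exact permutation test of the remaining libraries. Without HET replicate 1 the difference was 0.36, with an exact permutation p of 0.2. That p lay between 0.114 and 0.2 when any library other than HET replicate 3 was left out. The log2 ratio of Irf4 to Irf8, paralogs that compete for the same partners, averaged -3.25 ± 0.47 among HET libraries and -3.46 ± 0.31 among WT libraries (SD), a difference of 0.21 with p = 0.543 in the exact permutation test, before and after adjustment.

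**Figure D3:**
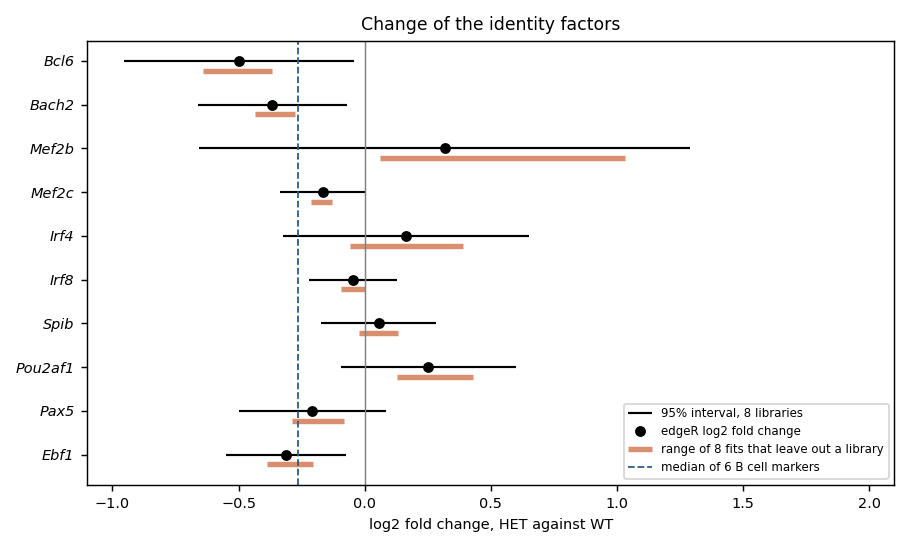
Log2 fold changes of HET over WT for the 10 factors on the x axis, each point the edgeR estimate, each black line its 95% interval and each orange line the range of the 8 fits that leave out a library, with the dashed line at the median of the 6 B cell markers. The intervals of Bcl6, Bach2 and Ebf1 end below 0 and span the dashed line at -0.26, and that of Mef2b, from -0.66 to 1.29, is the widest.

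The order of the 10 factors by level depended on the length by which counts are divided. In TPM (transcripts per 1000000) as deposited, where level means counts per gene length, Spib was highest at 281 and Irf8 next at 185, followed by Pou2af1 at 37.8, Mef2c at 23.7, Irf4 at 19.3, Bcl6 at 11.7, Pax5 at 5.36, Ebf1 at 4.07, Mef2b at 3.22 and Bach2 at 2.12 (means of 8 libraries). For all 10 factors, and for 97.8% of 10380 genes examined, the length that these TPM values imply is the mean genomic span of the GENCODE M21 transcripts with introns included, within 0.02 on the log2 scale. Exonic length matched for 1.1% of genes. The span exceeds the exonic length 19.1 times for Ebf1, 17.2 times for Bach2, 15.2 times for Pax5 and 12.3 times for Mef2b, and 2.13, 1.82 and 1.57 times for Bcl6, Irf8 and Spib, so genes with long introns are set low in this unit. Per exonic kilobase and rescaled to the same total, an alternative added after the data were seen, Spib stood at 318 ± 33.7, Irf8 at 243 ± 21.7, Pou2af1 at 179 ± 35.6 and Mef2c at 103 ± 10.9 (SD over 8 libraries). Below these came Pax5 at 58.7 ± 10.8, Ebf1 at 56.2 ± 10.4, Irf4 at 35.1 ± 9.15, Mef2b at 28.7 ± 15.3, Bach2 at 26.4 ± 4.95 and Bcl6 at 17.9 ± 5.26. Bcl6 was thus sixth by deposited TPM and last of the 10 per exonic kilobase, and 4 of the 10 kept their rank. Only Pou2af1 over Mef2c and Mef2c over Pax5 were neighbours in the exonic order whose ranges over the 8 libraries did not overlap, and every other neighbouring pair overlapped. Within libraries, Bach2 exceeded Bcl6 in 8 of 8 and Spib exceeded Irf8 in 7 of 8. The comparison of HET with WT within a gene is not touched by gene length other than through the rescaling.

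**Figure D4:**
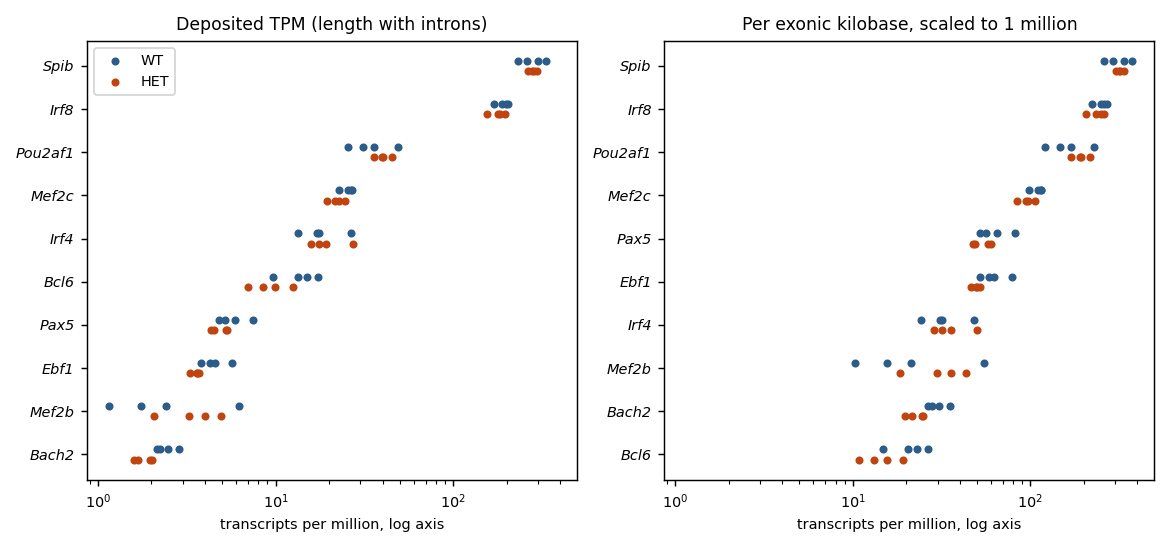
Level of each factor in the WT libraries (blue) and the HET libraries (orange), each point a library, on a log x axis by deposited TPM on the left and by counts per exonic kilobase rescaled to the same total on the right, ordered by the mean of the 8 libraries. Ebf1, Pax5 and Bach2 shift to the right by the exonic measure, from means of 4.07, 5.36 and 2.12 to 56.2, 58.7 and 26.4, while Spib and Irf8 are at the top by both.

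The genes whose pattern over the 8 libraries was most like that of Bcl6, among 7269 tested genes that averaged 4 or more in log2 CPM, were Chmp1b, Gripap1 and Pik3c2a, at mean absolute gaps of 0.12, 0.12 and 0.13 in centred log2 CPM against a median gap of 0.39. The closest of the other 9 factors were Mef2c at 0.26 and Ebf1 at 0.27, while Mef2b lay at 0.69. Of the 7269 genes, 403 lay closer to Bcl6 than Mef2c did and 594 closer than Ebf1 did.

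Factors that work beside the 10 were read from the same fit. Of 17 lineage partners, 6 had higher and 11 lower fitted values in HET, with a median of -0.07. Batf, an AP-1 factor that binds with IRF4 and that activated B cells need for class switching, was at 88.9, 112, 70.4 and 80.5 CPM in HET and 40.4, 71.8, 51.2 and 44.99 CPM in WT. Only HET replicate 3 lay below the highest WT library. The log2 fold change of Batf was 0.76 ± 0.20 (SE), with an unadjusted p of 0.00196 and an adjusted p of 0.328 by edgeR, and the adjusted p by DESeq2 was 0.0486 (0.0486 to 0.716 over all alternatives). Ets1, an ETS factor that restrains plasma cell formation, was at -0.26 (unadjusted p 0.0113 and adjusted p 0.569 by edgeR), with no overlap between groups, and at -0.006 after scaling to the B cell markers. Among 10 corepressors and cofactors of BCL6, Zbtb17 (MIZ1, which tethers BCL6 to promoters) had an unadjusted p under 0.05, at -0.64 ± 0.21 (SE), and the median of the list was -0.02.

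Genes that BCL6 is known to repress showed no shared direction. Of 15 in the list, 14 were tested, 7 with higher and 7 with lower fitted values, and their median was 0.01. Bcl2l1, which encodes the survival protein BCL-XL, and Ccnd2, which encodes cyclin D2, were at 0.88 ± 0.40 and 0.32 ± 0.12 (SE), and Cd69, an activation marker that holds cells in the node, at -0.33 ± 0.14 (SE). The unadjusted p of these 3 lay between 0.0224 and 0.0443, and their adjusted p between 0.604 and 0.667, by edgeR.

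Targets that PAX5 and EBF1 activate were mostly lower in HET by fitted value, 7 of 8, beside 50.1% of all genes, with a median of -0.11. The 4 with unadjusted p under 0.05 were the signalling chains Cd79a at -0.13 and Cd79b at -0.24, the inhibitory lectin Cd22 at -0.37 and the low-affinity IgE receptor Fcer2a at -0.27. Among all genes, 3.88% were lower in HET with unadjusted p under 0.05 by edgeR. Cd22 was at 748, 715, 696 and 741 CPM in HET and 935, 818, 950 and 1045 CPM in WT, with no overlap. Its adjusted p was 0.220 by edgeR and 0.0159 by DESeq2 (0.0159 to 0.541 over all alternatives). Cd79a, Cd79b and Cd22 also stand among the 6 B cell markers, so the lists are not separate measurements. After scaling to those markers Cd79a, Cd79b, Cd22 and Fcer2a were at 0.12, 0.01, -0.11 and -0.02. Cd79a, Cd79b and Cd22 enter that scaling, which holds the mean change of the 6 markers near 0, so their values there are no test. Of 6 genes that PAX5 represses, 5 had higher fitted values in HET, beside 49.9% of all genes, with a median of 0.71. Of these 6 genes, Xbp1 and Jchain are also plasmablast markers, Cd28 is a T cell marker, Flt3 a dendritic cell marker and Csf1r a myeloid marker. All 10 T cell markers tested had higher fitted values in HET, with a median of 0.67 and none with unadjusted p under 0.05, and the part of other cell types in this list was not tested. Flt3, a cytokine receptor of progenitors and dendritic cells, was at 22.1, 17.7, 26.1 and 15.6 CPM in HET and 5.80, 12.3, 7.82 and 5.85 CPM in WT, without overlap. Its log2 fold change was 1.36 ± 0.34 (SE), with an adjusted p of 0.280 by edgeR and 0.0147 by DESeq2 (0.0147 to 0.611 over all alternatives). Flt3 is also 1 of the 8 dendritic cell markers, and Siglech, a plasmacytoid dendritic cell marker, was at 102, 91.8, 13.03 and 23.7 CPM in HET and at 0, 0, 5.93 and 39.04 CPM in WT. The part of dendritic cells in the Flt3 values was not tested. Csf1r, a receptor of myeloid cells in the same list, was at -0.93 ± 0.36 (SE) with an adjusted p of 0.602 by edgeR.

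The germinal center program had the highest median among the 7 lists of companion genes. Of 9 genes 7 were tested, 6 had higher fitted values in HET, beside 49.9% of all genes, and for 4 unadjusted p was under 0.05, beside the 3.34% of all genes given above, with a median of 1.08. Fas, the death receptor that marks germinal center B cells, was at 10.1, 15.7, 14.4 and 17.1 CPM in HET and 7.51, 6.20, 6.18 and 7.20 CPM in WT, with no overlap. Its log2 fold change was 1.08 ± 0.32 (SE), with an adjusted p of 0.484 by edgeR. S1pr2, the receptor that confines B cells to the follicle center, was at 14.3, 27.2, 12.4 and 2.43 CPM in HET and at 4.18, 0.711, 0.883 and 0 CPM in WT, a log2 fold change of 3.26 ± 1.001 (SE). Nuggc, a nuclear GTPase of germinal center B cells, and Neil1, a base excision glycosylase, were at 2.92 and 0.87, and Nuggc was at 0 in 3 of the 4 WT libraries. Without WT replicate 2 every WT library left is at 0 for Nuggc, so its fitted value there has no meaning as a fold, and it was at 2.33 (unadjusted p 0.136 by edgeR) without HET replicate 1. Neil1 was at 0.57 (unadjusted p 0.0803 by edgeR) without HET replicate 2. The adjusted p of these 4 genes lay between 0.484 and 0.643 by edgeR, so none of them passed. Bcl6 had the lower mean in HET and these 4 genes the higher one, with none of them past the adjusted threshold. Whether these differences are linked was not tested, nor was the part of other cell types in the values of these genes.

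On the plasma cell side, 4 of 6 genes had higher fitted values in HET, with a median of 0.24, and none had an unadjusted p under 0.05. Prdm1 was at -0.21 and Xbp1, the secretory pathway regulator, at 0.44, with adjusted p of 0.978 and 0.835 by edgeR. Jchain had the lowest p of this list, at 3.63 ± 2.15 (SE) with an adjusted p of 0.793 by edgeR, and its HET mean rests on replicate 1, without which it was at 0.36.

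**Figure D5:**
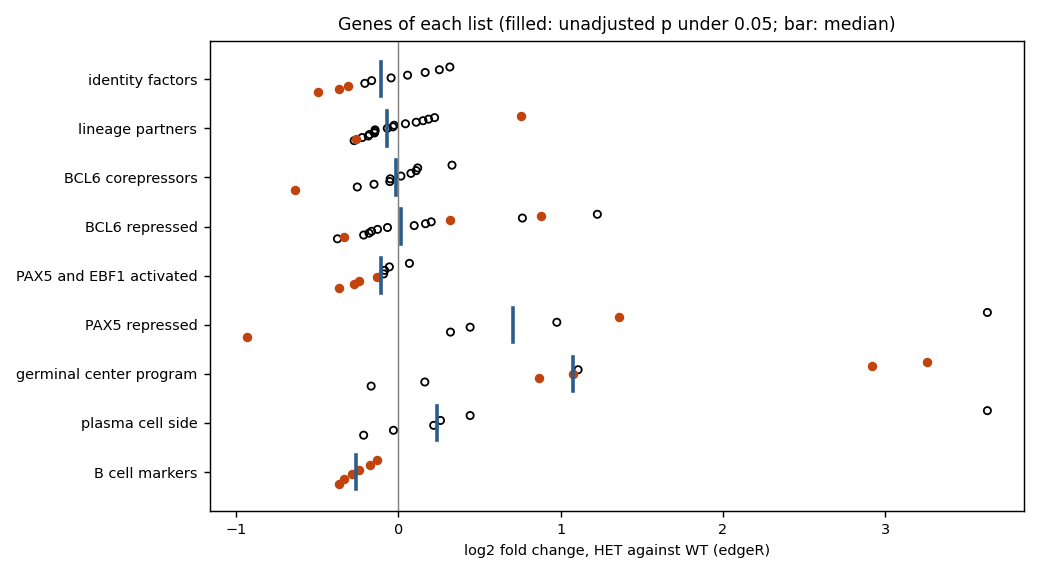
Log2 fold changes of HET over WT on the x axis for every tested gene of the 10 factors, the 7 companion lists and the 6 B cell markers, each point a gene (filled where unadjusted p is under 0.05) and each bar the median of its list. The germinal center program has the highest median at 1.08 and the B cell markers the lowest at -0.26, and the 10 factors lie around -0.11.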

How the data were processed

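Per the labels and the study's methods, the authors sequenced SMART-Seq2 libraries of about 200 sorted cells, aligned reads to mm10 (GRCm38) with HISAT2 2.2.1 and deposited whole-number gene counts by HTSeq. The authors also deposited TPM per library, whose lengths hold introns. The count table has 24259 symbols, and all its sample columns were used. Totals ran from 6652386 to 12559189 counts, and counting error alone would give the lowest member count, 50 for Mef2b, a relative error of 14.1%. The strand setting of the counting is not given in the sources used here.

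The members and lists were chosen with earlier results of these data known, and 2 genes of the lists are not reported here and were left out of every list. Counts were filtered by expression (12744 genes kept, holding 99.7% of counts), scaled by TMM and fitted in edgeR 4.0.16 (R 4.3.3) with the robust quasi-likelihood test, HET against WT over all 8 libraries, with Benjamini-Hochberg adjustment over all genes and a threshold of 0.05. The study used DESeq2, which is here an alternative (1.42.0), beside other scalings and filters, limma 3.58.1 with voom, limma on log2(TPM + 1) and log2(TPM + 0.1), the replicate number as a block, and each library left out in turn. Ratios of 2 genes were log2 of counts plus 0.5, compared by a two-sided exact permutation test. The text names all 10 members, each list's genes with unadjusted p under 0.05 (or the gene with the lowest p where none had), and the 3 genes nearest to Bcl6 in centred log2 CPM. Other genes named (Prdm1, Xbp1, Siglech, Pou2f1, Pou2f2, B cell markers) were chosen after their values were seen. Single markers of other cell types (Cd4, Cd8a, Trbc2, Lck, Cd28, Lyz2, Fcgr1, Sdc1, Mzb1, Tnfrsf17) were also named outside this rule. Same-numbered HET and WT libraries had deviations correlated at -0.01, 0.10, -0.02 and -0.01, none over 0.1, so the numbers were not taken as pairs. GENCODE M21 gave exons and RefSeq the promoter sequences. On simulated counts of this comparison (12744 genes), the edgeR test recovered 47% of 100 genes changed 2-fold and 85% of 100 changed 4-fold. It made 7 false calls among the genes left unchanged. Changes of the size fitted for the 10 factors, from 0.71-fold for Bcl6 to 1.25-fold for Mef2b, were not simulated.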

Additional observations from a re-analysis of the deposited data

Results flagged for a closer look

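Among 60 groups of 4 values examined, 5 had a library whose gap to the nearest of the others took up an unusually large share of the range of its group, and chance gives this in about 1 in 20 groups. Ebf1 in HET replicate 4 was at 232 CPM against 220.1 to 222 CPM in the other 3 (gap share 0.830). Zbtb17 in WT replicate 2 was at 30.7 CPM against 43.2 to 45.4 CPM (0.849). Ccnd2 in HET replicate 1 was at 277 CPM against 348 to 359.9 CPM (0.851). Nuggc in WT replicate 2 was at 1.93 CPM against 0 in the other 3 (1). Jchain in HET replicate 1 was at 1576 CPM against 10.5 to 97.1 CPM (0.945).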

How the results depend on the processing

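No factor passed the adjusted threshold under any alternative run. The number of genes that passed, 3 by the edgeR test, was 95 by DESeq2 (41 higher and 54 lower), 38 with no filter, 7 with a mean of at least 50 counts, 6 by limma-voom, 0 with limma on log2(TPM + 1), 1 on log2(TPM + 0.1), 0 with a mean TPM of at least 1 and 11 with libraries scaled to the B cell markers. With the replicate number as a block it was 0, the number of factors with unadjusted p under 0.05 was again 3, and the numbers do not pair the libraries. Leaving out single libraries gave 1 to 6 genes, with 1 without HET replicate 1, 2, 3 or 4 or WT replicate 3 and 6 without WT replicate 1. The number of factors with unadjusted p under 0.05, 3 by edgeR, was 0 under all 3 limma fits of TPM, 4 by limma-voom and 2 to 3 without single libraries. It was also 3 with the B cell marker scaling, where the factors were Irf8, Spib and Pou2af1, all higher in HET, and not Bcl6, Bach2 and Ebf1. The factors also changed between the fits without single libraries, none of which kept Bcl6, Bach2 and Ebf1 all under 0.05. Others entered by edgeR: Mef2b without WT replicate 1 (0.0170), Mef2c without HET replicate 2 (0.0362) or WT replicate 2 (0.0194), and Pou2af1 without WT replicate 3 (0.0120). The cause was not tested.

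Scaled to the B cell markers, which moved the median of all genes to 0.25, the log2 fold changes were 0.055 for Pax5, 0.21 for Irf8, 0.092 for Mef2c, 0.12 for Cd79a and 0.013 for Cd79b, against values below 0 by the edgeR test with TMM scaling. Cd79a and Cd79b are among the markers that set this scaling, so their values on it are no test. Without HET replicate 1 and WT replicate 4 together, Irf8 was at 0.038 and Spib at -0.077. Both of these alternatives were added after the data were seen. Over single libraries left out, Irf4 ran from -0.058 to 0.39, Irf8 from -0.094 to 5.77e-05 and Spib from -0.021 to 0.13. The log2 ratio of Irf4 to Bcl6 ran from 0.36 to 0.90, that of Irf4 to Irf8 from -0.019 to 0.36, and that of Mef2b to Mef2c from 0.38 to 1.18. Of the 10 ranks by deposited TPM, 4 were kept per exonic kilobase and 0 in CPM. Signs of the Bcl6, Bach2 and Ebf1 values were the same in all 20 alternatives of each.

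Depth limits Mef2b, with 50 counts in 1 library, and the genes of the germinal center program with 0 counts in a WT library. The 4 libraries of a group come from 1 pool, so spread between mice was not measured.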
